A study of Caenorhabditis elegans with 4 samples.

Results

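BLMP-1 peaks on chromosome III of Caenorhabditis elegans were taken from the peak lists of a ChIP-seq experiment, in which DNA bound by a protein is precipitated and sequenced. Every peak listed on chromosome III was a member, which gave 2851 of the 17858 peaks of the list of the whole series, or 16.0%. The same rule gave 2067 peaks in the list of ChIP replicate 1 and 558 in that of ChIP replicate 2. All samples were hermaphrodite embryos of strain OP109 grown at 20 °C. The strain carries the mutation unc-119(ed3), itself on chromosome III, and the transgene wgIs109, which holds blmp-1 fused to TY1, EGFP and FLAG together with a working copy of unc-119. The transgene was introduced by biolistic transformation and the strain was not outcrossed, per the labels, and the native blmp-1 gene is not listed as mutated. There were 2 ChIP samples and 2 input samples, and the labels do not say whether replicates came from separate cultures. No input list was analysed here, so a called peak is a candidate site only, and read depth is unknown for all samples.

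BLMP-1, the worm relative of mammalian Blimp-1, binds DNA through zinc fingers and regulates transcription. It is known in C. elegans for its part in the timing of larval development, in the epidermis and its cuticle, and in the migration of the gonad. The autosomes of the worm are commonly described as gene-dense centres flanked by arms that are richer in repeats and recombine more. No gene is named here, because the peaks are placed on WormBase release WS220 and the gene table at hand follows another assembly.

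Chromosome III was the most densely occupied of the chromosomes compared, in each of the 3 lists. The series list placed 207 peaks per Mb on III, against 192 on II, 196 on IV, 181 on V and 177 on X. Replicate 1 placed 150.0 peaks per Mb on III, against 116 on II, 125 on IV, 113 on V and 112 on X. Replicate 2 placed 40.5 per Mb on III, against 35.2 on II, 31.5 on IV, 28.3 on V and 32.2 on X. Set against II, IV, V and X together, the density of III was 1.11 times theirs in the series list (exact 95% interval 1.07 to 1.16). The ratio was 1.29 in replicate 1 (1.23 to 1.35) and 1.28 in replicate 2 (1.17 to 1.41). The excess was thus larger in either replicate than in the series list, and the 2 replicates gave nearly the same value.

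Single chromosomes differed from III by unequal amounts. In the series list III had 1.17 times the density of X (exact binomial adjusted p 4.92e-09) and 1.14 times that of V (adjusted p 2.59e-07). It had 1.08 times that of II (adjusted p 0.00645) and 1.05 times that of IV (adjusted p 0.0434). With only peaks of at least 50 bp, a setting added after seeing the data, the ratio to II was 1.06 (adjusted p 0.0948) and that to IV was 1.01 (adjusted p 0.731), so neither passed 0.05. Peak numbering in the list leaves out 428 numbers, and with all of them counted on the single chromosome compared, the ratio was 0.940 to II and 0.936 to IV (adjusted p 0.0305 for both), and 1.02 to V and 1.03 to X (adjusted p 0.313 for both). That bound, also added after seeing the data, turned the direction for II and IV and ended the call for V and X. The ratio to IV also missed it when peaks within 1000 bp of each other were counted as 1 (1.05, adjusted p 0.128). Within replicate 1 the ratios were 1.29 to II, 1.20 to IV, 1.32 to V and 1.34 to X, the highest adjusted p being 2.43e-09. In replicate 2 they were 1.15 to II (adjusted p 0.0215), 1.29 to IV, 1.43 to V and 1.26 to X. Neighbouring peaks are not independent, so these two-sided exact binomial p-values, adjusted by Benjamini-Hochberg over 4 chromosomes, are too small.

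In bases covered, III stood out less. Peaks covered 3.63% of III in the series list, against 3.54% of II, 3.66% of IV, 3.22% of V and 3.61% of X. For replicate 1 the covered share was 2.61% on III and 2.04% to 2.40% on the other 4, and in replicate 2 it was 1.28% on III and 0.946% to 1.22% on the other 4. The step from the replicates to the series list also differed. On III there were 1.38 series peaks for each replicate 1 peak, against 1.66 on II, 1.57 on IV, 1.60 on V and 1.58 on X.

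In the series list III was densest over a broad inner stretch and in its last part at the right end, and in replicate 1 over most of the chromosome. In the series list, each of the 7 bins of 1 Mb from 3000001 to 10000000 held 215 to 237 peaks. The 6 full bins outside it held 143 to 204, and the median of 69 full bins on the other 4 chromosomes was 186. The inner 7 bins, delimited after their values were seen, exceeded the mean density of II, IV, V and X by 290 peaks in total. The other 6 full bins together lay 37.2 peaks below it. That mean was taken over whole chromosomes, not over the same part of each. The last part of III, 13000001 to 13781245, is shorter than a full bin and was left out of these sums. It held 178 series peaks, or 228 per Mb, as dense as the inner bins, so the sparser outer bins do not include the right end. The lowest bin was the first, 1 to 1000000, with 143 peaks.

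Replicate 1 spread its excess more widely. Its inner 7 bins held 135 to 189 peaks and the other 6 held 107 to 163, against a median of 116 on the other chromosomes. Of the 13 full bins of III, 12 lay above that median, and the excess was 300 peaks in the inner bins and 125 in the outer ones. Replicate 2 had 35 to 58 peaks in the inner bins and 28 to 43 in the outer ones, against a median of 32, with an excess of 95.3 and 16.8 peaks. Its fullest bin was 4000001 to 5000000 with 58 peaks, whereas 8000001 to 9000000 was fullest in replicate 1, with 189, and in the series list, with 237. That last bin held 52 peaks of replicate 2, second in its list. The part from 13000001 to 13781245 had 165 peaks per Mb in replicate 1 and 46.1 in replicate 2, within the range of the inner bins in both.

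**Figure D1:**
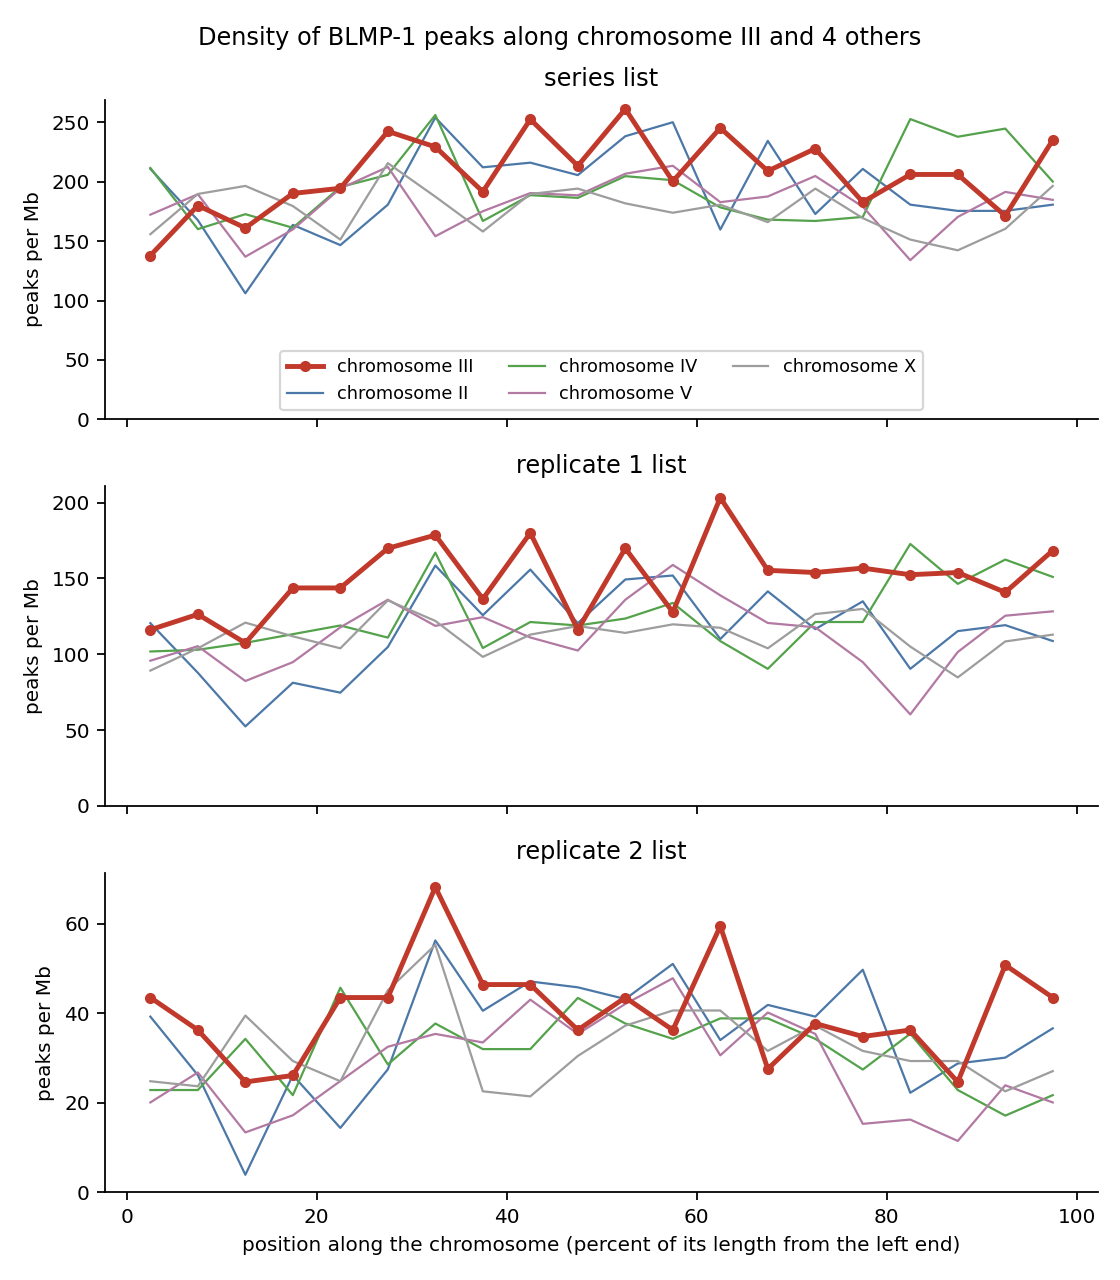
Peaks per Mb (y axis) in 20 equal parts of each chromosome (x axis, percent of chromosome length from the left end), with 1 panel for each list and 1 line for each chromosome. Chromosome III (thick line with points) ranged from 138 to 261 per Mb in the series list and was the densest of the 5 in 8 of 20 parts there, in 14 of 20 in replicate 1 and in 9 of 20 in replicate 2.

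Divided into 3 equal parts, III was densest in the middle in every list. The series list gave 225 peaks per Mb in the middle, 207 on the right and 189 on the left, a ratio of middle to outer parts of 1.14 (exact 95% interval 1.06 to 1.23). Replicate 1 gave 156, 154 and 140 per Mb in the same order (ratio 1.06, 0.969 to 1.16), and replicate 2 gave 44.2, 37.4 and 39.8 (1.14, 0.958 to 1.36). The intervals of both replicates include 1. The middle-to-outer ratio of III lay between those of the other chromosomes, which ran from 0.968 on IV to 1.19 on II in the series list. Compared part by part with the other 4 chromosomes, III had 1.05 times their series density on the left (0.973 to 1.13), 1.16 times in the middle (1.09 to 1.24) and 1.12 times on the right (1.04 to 1.20). In replicate 1 those ratios were 1.31 (1.20 to 1.42), 1.26 (1.16 to 1.37) and 1.30 (1.20 to 1.41). In replicate 2 they were 1.40 (1.18 to 1.65), 1.16 (0.994 to 1.36) and 1.33 (1.12 to 1.58). Against the same part of the other 4 chromosomes, the ratio of III was not highest in the middle in either replicate. In each list the intervals of the 3 parts overlap, so their order is not settled.

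In windows of 100 kb, III had a higher median than the other chromosomes in each list, while the fullest windows lay elsewhere. The 137 full windows of III held 3 to 39 series peaks with a median of 20 and quartiles of 17 and 25. The 711 windows of II, IV, V and X held 0 to 44, with a median of 18 and quartiles of 14 and 22. Replicate 1 had a median of 15 on III and 11 on the others, and replicate 2 one of 4 on III and 3 on the others. Replicate 2 left 3.65% of the III windows empty, against 6.58% on II, 6.90% on IV, 13.0% on V and 7.34% on X. Counts varied less from window to window on III at this size, with a variance of 1.76 times the mean in the series list, against 2.18 on II, 2.17 on IV, 2.18 on V and 1.85 on X. In replicate 1 it was 1.43 times on III, above only the 1.39 of X, and in replicate 2 it was 1.48 on III and 1.58 to 1.86 on the other 4. The other 4 together had 2.12 in the series list at this size. Over 1-Mb bins of the series list the order against them together was the opposite. There the variance was 3.93 times the mean on III and 3.30 times on the other 4 together. The replicates did not share that reversal. Over 1-Mb bins replicate 1 had 2.84 on III and 3.68 on the other 4, and replicate 2 had 1.96 and 3.27. Values of the 4 together also hold differences between those chromosomes, and values of single chromosomes are not given for 1-Mb bins. No test was made at either size.

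**Figure D2:**
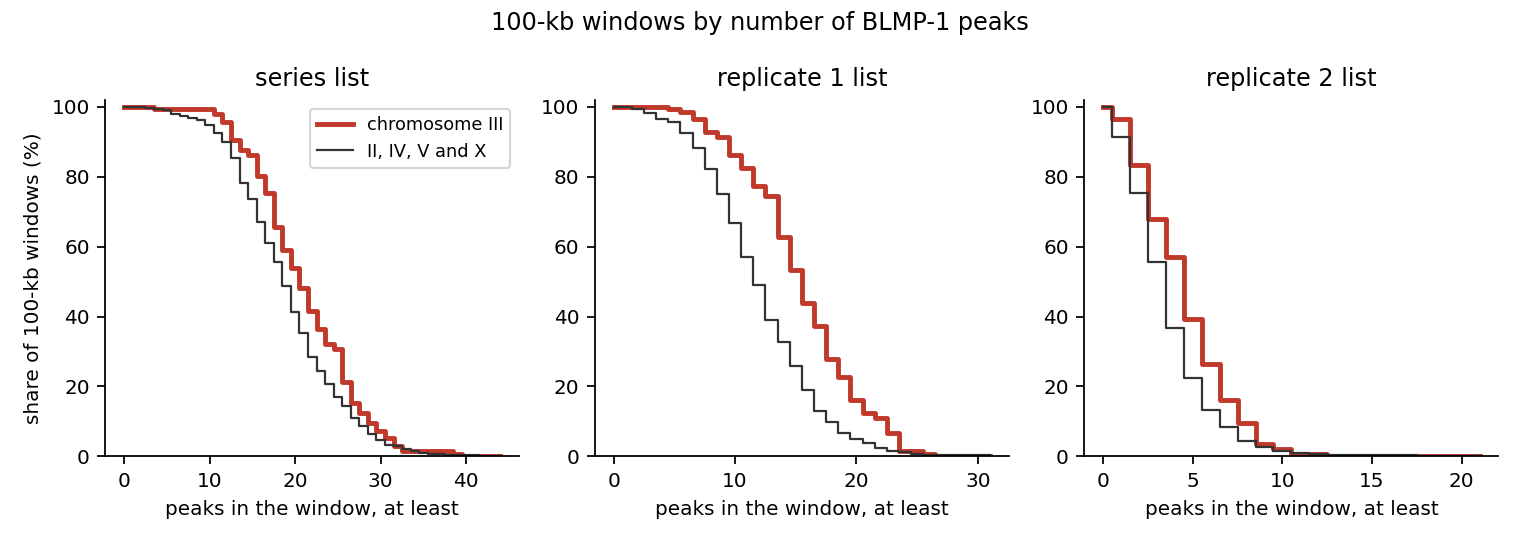
Share of 100-kb windows (y axis, percent) that held at least the number of peaks on the x axis, for chromosome III (thick line) and for II, IV, V and X together (thin line), in each list. The III line lies to the right over most of its course, with medians of 20 against 18 in the series list, 15 against 11 in replicate 1 and 4 against 3 in replicate 2, but the fullest windows belong to the other chromosomes.

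The fullest windows of III lay in its inner part. The window 9700001 to 9800000 held 39 peaks of the series list, with 22 from replicate 1 and 8 from replicate 2. The window 7100001 to 7200000 held 38, 25 and 5, and 6800001 to 6900000 held 32, 18 and 7. Of the series peaks in them, 5, 4 and 2 overlapped both replicates. The strongest peak of the first window ranked 862 among all series peaks, that of the second 634 and that of the third 184. With windows moved by 50 kb the fullest was a different one, 13650001 to 13750000 near the right end, with 37 series peaks. Replicate 2 had its fullest window at 8500001 to 8600000 with 12 peaks, where the series list had 31 and replicate 1 had 23.

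Series peaks that overlapped peaks of both replicates were spread along III as well. The replicate peaks under such a series peak need not overlap each other. Each full 1-Mb bin held 14 to 33 series peaks that overlapped both replicates, with the most at 8000001 to 9000000 and the fewest at 2000001 to 3000000. Per 100-kb window the median was 2, and 22 of 137 windows had none. The window with the most, 3800001 to 3900000, had 8 among its 24 series peaks. The longest stretch without such a peak ran from 1950614 to 2304867 (354254 bp) and still held 47 series peaks. These last positions were picked after their values were seen.

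Stretches of III without any series peak were short. The longest ran from 254071 to 308861 (54791 bp), the next from 2172420 to 2217144 (44725 bp) and the third from 7402936 to 7446841 (43906 bp). The longest on the other chromosomes were 56988 bp on II, 82453 bp on IV, 222941 bp on V and 86814 bp on X. None of the 3 stretches was empty in all lists. The first held 1 peak of each replicate, with scores of 5.92e-05 in replicate 1 and 0.000606 in replicate 2. The second held 1 peak of replicate 1, and the third held 1 peak of replicate 2. The score is the authors' own value for each peak and was read as a q-value, so a stronger peak has a smaller score. The sparsest window was 200001 to 300000, where the series list had 3 peaks, replicate 1 had 6 and replicate 2 had 1. It was followed by 300001 to 400000 and 12700001 to 12800000 with 10 series peaks each, and 300001 to 400000 still held a peak of rank 535.

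The stretches without replicate peaks lay elsewhere. In replicate 1 the longest were 1310541 to 1379834 (69294 bp), 6546431 to 6606103 (59673 bp) and 6748549 to 6799029 (50481 bp), with 6, 7 and 2 series peaks inside. Replicate 1 lacked peaks over 108516 bp on II, 105160 bp on IV, 256738 bp on V and 86809 bp on X. In replicate 2 the longest were 9067467 to 9285657 (218191 bp), 1424902 to 1591605 (166704 bp) and 6646307 to 6799836 (153530 bp). The third contained a long stretch of replicate 1, and both replicates were without peaks from 6748549 to 6799029.

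Chromosome III was over-represented among strong series peaks and under-represented among the weakest. All series peaks were ranked by score and divided into 10 equal classes. III supplied 361 of the 1786 peaks of the strongest class, or 20.2%, and 182 of the 1785 of the weakest, or 10.2%. Its density relative to II, IV, V and X was 1.53 in the strongest class (exact 95% interval 1.36 to 1.73) and 1.29, 1.36 and 1.18 in the next 3. It was 0.995 to 1.13 in classes 5 to 7, 0.986 and 0.928 in the next 2, and 0.674 (0.574 to 0.787) in the weakest class. The interval of the strongest class and that of the weakest are far apart and lie on opposite sides of 1. Scores below 1e-10 were listed for 290 series peaks of III, or 10.2%, where 7.94% of all series peaks had such a score. The same shares were 6.24% of III (129 peaks) and 5.48% of all peaks in replicate 1, and 7.53% of III (42 peaks) and 7.94% of all peaks in replicate 2.

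Replicate 1 had an excess on III in its stronger classes too, but neither replicate had a deficit in its weakest. Replicate 1 had a ratio of 1.59 in the strongest class (1.37 to 1.84), 1.41 to 1.54 in the next 4 and 0.952 to 1.25 in the weaker 5. Replicate 2 had 1.23 in the strongest class (0.891 to 1.67) and 0.934 to 1.63 in the others, with no order along strength. No class of either replicate had an interval below 1. With the series list shortened to its 3009 strongest peaks, the length of replicate 2, III had 574 of them and 1.42 times the density of the other 4 (1.29 to 1.55).

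**Figure D3:**
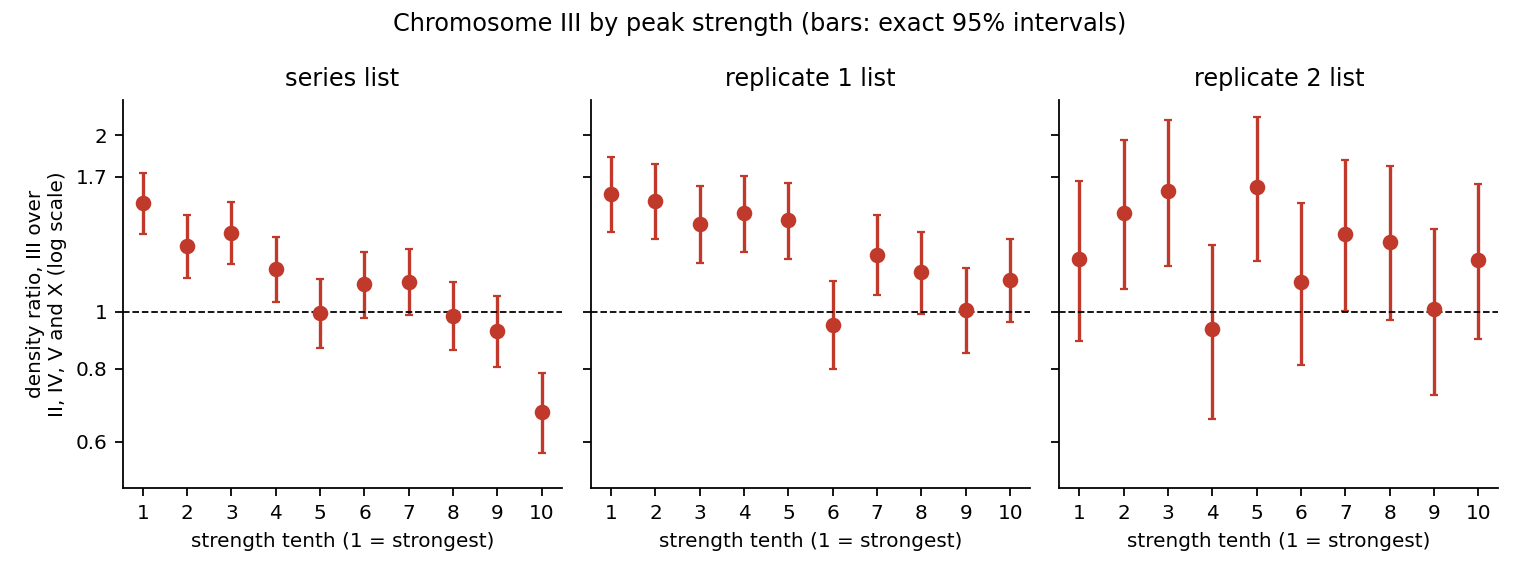
Ratio of peak density on chromosome III to that on II, IV, V and X together (y axis, log scale) in 10 classes of peak strength (x axis, 1 the strongest), for each list, with exact 95% intervals that cover counting error only. In the series list the ratio is 1.53 in the strongest class and 0.674 in the weakest, while no replicate class has an interval below 1.

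None of the 10 strongest series peaks lay on III. The first peak of III ranked 16 by series score, 19 in replicate 1 and 17 in replicate 2. Among the 100 strongest series peaks, 20 were on III, against 15 on II, 14 on IV, 15 on V and 25 on X. Among the 1000 strongest, 199 were on III, against 172 on II, 155 on IV, 154 on V and 197 on X.

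The strongest peak of III by series score was 568382 to 569738 (1357 bp, score 1.55e-113). Replicate 1 listed 2 peaks there, over 80.8% of its length, the stronger with a score of 9.84e-78. Replicate 2 listed 1 with a score of 5.22e-41, and these ranked 19 and 18 in their lists. The next was 9645986 to 9646915 (930 bp, 3.86e-108), with 8.42e-71 in replicate 1 and 5.40e-42 in replicate 2, at ranks 24 and 17. These 2 positions were the first 2 of III in each list, in opposite order in replicate 2. Scores of different lists may not be on one scale, since read depth is unknown, so ranks are given beside the scores.

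The following positions kept similar ranks across lists. The peak 12800268 to 12801560 (1293 bp) ranked 29 by series score, 29 in replicate 1 and 52 in replicate 2, where 2 peaks covered 48.5% of it. The peak 13720021 to 13721377 (1357 bp) ranked 31, 32 and 31. The peak 2401190 to 2401977 (788 bp) ranked 38, 38 and 37. The peak 8801485 to 8802654 (1170 bp) ranked 44, 41 and 36, and its nearest series neighbour was 222 bp away. The peak 3681252 to 3681929 (678 bp) ranked 47 and 37 in the series list and replicate 1, and 81 in replicate 2. The peak 1923451 to 1924567 (1117 bp) ranked 49, 53 and 38.

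The last 2 of the 10 were a long region and a peak near the right end. The region 7728054 to 7730085 (2032 bp) ranked 56 in the series list but was covered by 2 peaks in each replicate, over 76.6% of its length in replicate 1 and 76.4% in replicate 2. The best of these ranked 255 in replicate 1 and 72 in replicate 2. The peak 13708732 to 13709447 (716 bp) ranked 60, 72 and 53. It lay 71.8 kb from the last listed position of III, and the peak at 13720021 lay 59.9 kb from it. All 10 overlapped peaks of both replicates, and of the 100 strongest series peaks on III 99 did. The exception, 7733205 to 7734555 (1351 bp, score 3.64e-19, rank 498), overlapped a replicate 2 peak of rank 592 and no replicate 1 peak. Of all series peaks, weak ones included, 9.09% overlapped both, and no count for the strongest peaks of other chromosomes is given here.

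Series peaks wider than 2000 bp numbered 2 on III, against 2 on II, 2 on IV, 1 on V and 1 on X, and the widest peak of III was narrower than the widest of each of the others. The widest series peak on III was 13778142 to 13781236 (3095 bp, score 4.53e-34, rank 173), which ended 9 bp before the last listed position of the chromosome. That position is itself the end of the replicate 1 peak there, so the 9 bp do not measure the distance to the true chromosome end. Replicate 1 listed 13778124 to 13781245 (3122 bp, rank 99) there, and replicate 2 listed 13779458 to 13781045 (1588 bp, rank 638). The region at 7728054 came next, followed by 8838948 to 8840697 (1750 bp, rank 82). The widest series peaks of the other chromosomes measured 5938 bp on II, 6324 bp on IV, 3793 bp on V and 13351 bp on X. No input data were analysed here, so peaks at chromosome ends and wide regions are not shown to be bound.

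Peaks of III were narrow. The median series width was 139 bp on III (quartiles 56 and 208 bp), against 144 bp on II, 147 bp on IV, 142 bp on V and 157 bp on X. For replicate 1 it was 146 bp on III and 151 to 172 bp on the other 4. In replicate 2 it was 267 bp on III and 282 to 334 bp on the other 4. III thus had the lowest median in each list, with no test of that order. Peaks under 50 bp made up 22.9% of III in the series list (653 peaks), where 20.5% of all series peaks were that narrow. Their share was 2.45 percentage points higher on III than on II, IV, V and X (95% interval 0.791 to 4.17). In replicate 1 it was 20.4% on III and 16.7% of all peaks, 3.93 points above the other 4 (2.06 to 5.89). In replicate 2 it was 1.25% on III, or 7 peaks, and 0.665% of all peaks, with a difference of 0.677 points (-0.0867 to 2.01) whose interval includes 0.

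At matched strength, too, peaks of III were narrower in the series list and in replicate 1. Median width was largest in the strongest class on III and on the other 4 together, and III held more strong peaks. In the strongest class of the series list the median width was 427 bp on III and 492 bp on the other 4 together, and in the next class it was 232 and 288 bp. III lay below each of the 4 chromosomes in 9 of 10 classes. The exception was class 8, where III had 68.5 bp and the lowest of the 4 had 67 bp. Replicate 1 also had III below each of the 4 in 9 of 10 classes, with 425 bp on III and 490.0 bp on the other 4 in the strongest. In replicate 2 it was below each in 5 of 10, and in its strongest class the median was 603 bp on III and 581 bp on the other 4. Among the stronger 50% of series peaks, 10.3% were under 50 bp on III and 7.29% on the other 4, a difference of 3.05 points (1.50 to 4.75).

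**Figure D4:**
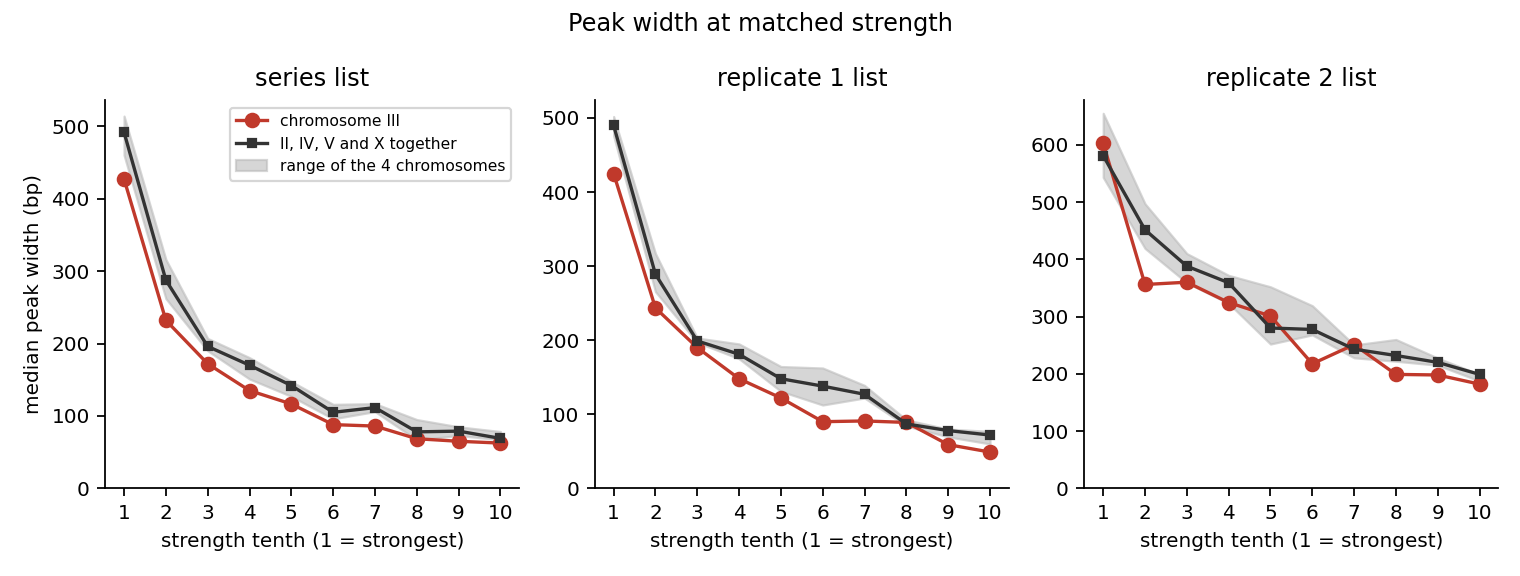
Median peak width in bp (y axis) in 10 classes of strength (x axis, 1 the strongest) for chromosome III (circles), for II, IV, V and X together (squares), and the range of those 4 chromosomes (grey band), in each list. III lies below the band in 9 of 10 classes of the series list and of replicate 1 and in 5 of 10 of replicate 2.

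Peaks on III lay closer together. The median gap between neighbouring series peaks was 2711 bp on III, against 2992 bp on II, 2681 bp on IV, 3094 bp on V and 3097 bp on X. IV, slightly less dense, had the smaller median gap. Replicate 1 had a median gap of 3888 bp on III and 4597 to 5395 bp on the other 4, and replicate 2 one of 14130 bp on III and 15905 to 18498 bp on the other 4. Gaps over 20 kb made up 2.39% of series gaps on III and 3.10% to 4.09% on the other 4. The smallest gap on III was 201 bp in the series list, 203 bp in replicate 1 and 208 bp in replicate 2.

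A neighbour with at most 1000 bp between was found for 41.1% of series peaks on III (1173 peaks), against 36.9% of all series peaks. The share was 39.3% on II, 39.3% on IV, 35.6% on V and 35.2% on X, so II and IV lay nearer to III. III exceeded II, IV, V and X together by 3.87 percentage points (95% interval 1.90 to 5.87). For replicate 1 the share was 31.9% on III (660 peaks) and 26.3% of all peaks, 6.01 points above the other 4 (3.82 to 8.25). In replicate 2 it was 16.8% on III (94 peaks) and 15.2% of all peaks, with a difference of 1.56 points (-1.70 to 5.19). A denser chromosome brings peaks nearer in itself, and how much of these differences density gives was not tested.

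Long runs of close peaks were not more common on III in the series list. Runs of 3 or more peaks, each within 1000 bp of the next, held 13.4% of the series peaks of III and 13.4% of those of the other 4. The share was above that of III on II (16.1%) and IV (14.8%) and below it on V (11.6%) and X (11.6%). In replicate 1 such runs held 11.0% on III and 6.98% on the other 4, but in replicate 2 they held 2.87% on III and 3.91% on the other 4. The longest run of III had 8 series peaks at 9637622 to 9642610, just before the peak at 9645986 described above. It was named after its values were seen.

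Replicate 2 peaks of III were matched in replicate 1 more often than those of the other 4 chromosomes together, though not more often than those of X. Of the 558 replicate 2 peaks of III, 303 shared at least 1 bp with a replicate 1 peak (54.3%, exact 95% interval 50.1% to 58.5%), where the share over all chromosomes was 51.5%. It was 50.6% on II, 46.6% on IV, 42.3% on V and 56.0% on X. III exceeded these 4 together by 5.48 percentage points (0.844 to 10.1). Among the stronger 50% of each list the difference was 5.81 points, with an interval of -0.373 to 11.6 that includes 0. Of the 2067 replicate 1 peaks of III, 305 met a replicate 2 peak (14.8%, 13.3% to 16.4%), where the share over all chromosomes was 13.8%. The difference from the other 4 was 1.51 points (-0.136 to 3.25) and its interval includes 0. More bases are covered by peaks on III in both replicates, which adds overlap by itself, and its part in the result was not tested.

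The agreement followed strength. All 50 of the strongest replicate 1 peaks on III had a replicate 2 peak (interval 92.9% to 100.0%), and all 50 of the strongest replicate 2 peaks on III had a replicate 1 peak. Among the 100 strongest, 92 of replicate 1 and 94 of replicate 2 were matched. These counts were given for III alone, while classes of strength allow a comparison. With each list divided into 5 classes of strength, 93.9% of replicate 2 peaks on III were matched in the strongest class, 71.3% in the next and 24.5% in the weakest. On II, IV, V and X together these were 93.1%, 59.4% and 24.9%. The matched share of replicate 1 on III was 48.0% in the strongest class, 9.03% in the next and 1.97% in the weakest, against 47.5%, 9.13% and 2.78% on the other 4.

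Across the 303 matched pairs of III, ranks in the replicates correlated with Spearman's rho of 0.601, and the values of the other chromosomes ran from 0.549 to 0.650. This is a description over peaks, which share their 2 libraries. Midpoints of matched peaks lay 65 bp apart at the median, and within 100 bp in 67.7% of pairs. Over 137 windows of 100 kb, peak numbers of the replicates correlated with a rho of 0.497 on III, against 0.616 on II, 0.328 on IV, 0.545 on V and 0.596 on X. These windows also share the 2 libraries and neighbour each other.

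From each replicate, the 5 strongest peaks of III without a partner were taken. Their ranks reflect that choice, and none are given here for the other chromosomes. The 5 of replicate 1 ranked 376 to 463 of 11261, and the 5 of replicate 2 ranked 425 to 496 of 3009. In replicate 1 the first was 7179658 to 7180020 (score 5.98e-14), at place 80 on III and 5708 bp from the nearest replicate 2 peak. It was followed by 11825005 to 11825544 (score 1.55e-13), which missed the nearest replicate 2 peak by 98 bp, and by 6863888 to 6864243, 5621196 to 5621598 and 657177 to 657603, at places 83 to 92. Each of the 5 matched a series peak. In replicate 2 the first was 8305777 to 8306302 (score 4.63e-08), at place 74 on III, which matched no series peak. The others were 354815 to 355220, 6148127 to 6148705, 434391 to 434729 and 4589005 to 4589845, at places 77 to 86. The last of these matched a weak series peak of rank 11779.

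Some matched peaks differed widely in rank, and the 2 given here were chosen after their values were seen. The pair at 7207835 ranked 751 of 11261 in replicate 1 and 2814 of 3009 in replicate 2, with scores of 1.48e-09 and 0.000858. The reverse was seen at 2654459, ranked 9218 in replicate 1 and 680 in replicate 2, with scores of 0.000659 and 1.68e-06.

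A larger share of the series peaks of III overlapped a replicate peak than on the other chromosomes. A series peak counted in both met a peak of each replicate, and those replicate peaks need not overlap each other. Of the 2851, 315 overlapped peaks of both replicates (11.0%, exact 95% interval 9.92% to 12.3%), where 9.09% of all series peaks did. The share was 9.61% on II, 8.03% on IV, 7.12% on V and 10.7% on X, so the interval of III holds the value of X. Another 1120 overlapped replicate 1 only (39.3%, all series peaks 36%), and 179 overlapped replicate 2 only (6.28%, all series peaks 5.93%). The remaining 1237 overlapped neither (43.4%, 41.6% to 45.2%), where 49% of all series peaks did. The share in neither, III minus II, IV, V and X together, differed by -5.64 percentage points (95% interval -7.64 to -3.63), and each of those 4 lay above the interval of III, at 48.0% to 50.4%.

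In peaks per Mb, III exceeded the other 4 together in peaks found in both replicates and in those found in replicate 1 only, while the intervals for replicate 2 only and for neither include 1. Since both replicates were denser on III, support is likelier there by that alone, and its part in the result was not tested. Peaks in both replicates were 1.40 times as dense on III as on the other 4 (1.24 to 1.59), at 22.9 against 16.3 per Mb. Peaks in replicate 1 only were 1.21 times as dense (1.14 to 1.30), and those in replicate 2 only 1.11 times (0.940 to 1.31). Peaks in neither replicate were 0.983 times as dense (0.924 to 1.04), at 89.8 against 91.3 per Mb. By chromosome, peaks in neither numbered 89.8 per Mb on III, against 96.9 on II, 96.3 on IV, 88.5 on V and 84.8 on X, and peaks in replicate 2 only numbered 13.0 per Mb on III, against 13.2 on II, 12.1 on IV, 12.1 on V and 9.60 on X. On III the peaks in both replicates had a median width of 409 bp and a median score of 4.50e-14, and those in neither had 87 bp and 0.000151. On the other 4 the widths were 444 bp in both and 100 bp in neither.

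**Figure D5:**
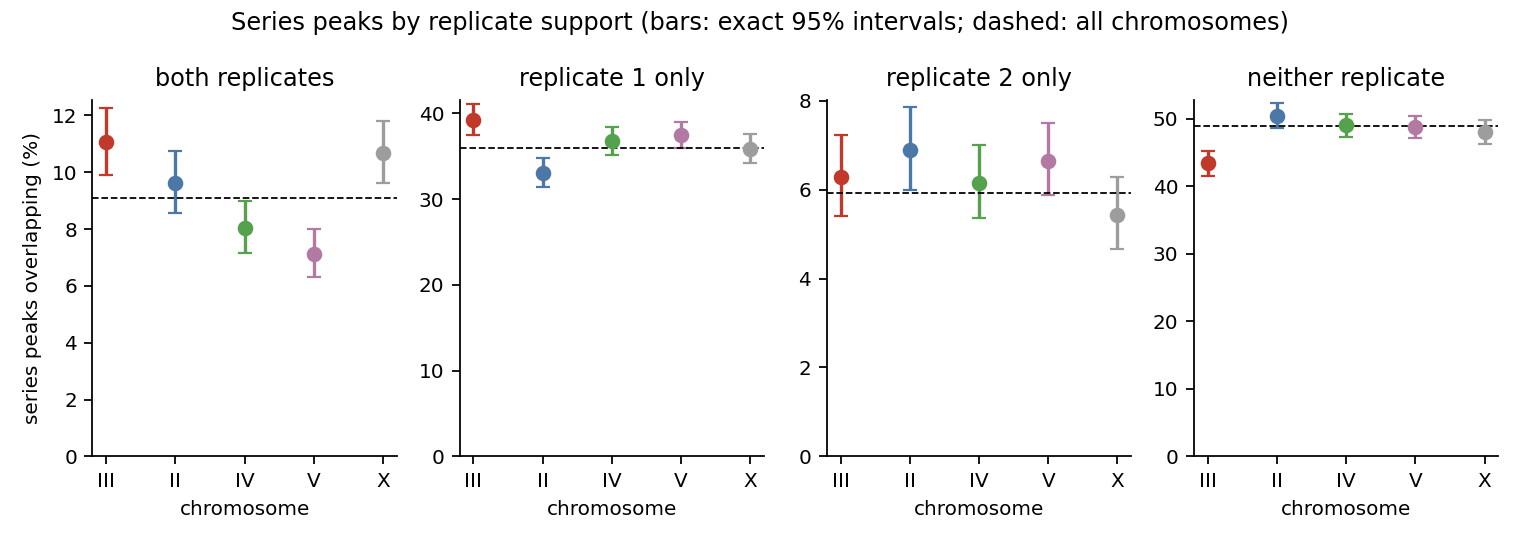
Share of series peaks (y axis, percent) that overlapped peaks of both replicates, of 1 replicate only or of neither, for each chromosome (x axis), with exact 95% intervals and a dashed line at the share over all chromosomes. Chromosome III has the highest share in both (11.0%) and in replicate 1 only (39.3%) and the lowest in neither (43.4%).

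In the other direction, the share of replicate peaks overlapped by the series list was lowest on III, by small margins and with no test of that order. The series list overlapped 69.7% of the replicate 1 peaks of III (exact 95% interval 67.6% to 71.6%), against 70.9% to 74.0% on the other 4. It overlapped 87.8% of the replicate 2 peaks of III (84.8% to 90.4%), against 88.3% to 89.8%.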

How the data were processed

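The authors deposited 3 peak lists, of ChIP replicate 1, ChIP replicate 2 and the series as a whole. They called peaks with PeakSeq on WormBase WS220, per the file headers and source column. Software version, aligner, threshold, use of the inputs and any pooling of reads are, in the sources used here, not given. The deposited score of each peak was read as a q-value: it stayed below 0.001, and score times peak number never fell along the numbering (0 falling steps in each list). Deposited positions count from 1 and were left unchanged. Peak numbers were missing from the lists used here, 428 from the series list, 148 from replicate 1 and 0 from replicate 2. Depth is unknown, and the numbers of peaks and of ChIP libraries limit the precision.

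Chromosome length was the last peak end over all lists (13781245 bp for III). Peaks were placed by their midpoints. Peaks sharing at least 1 bp were taken to overlap, and bedtools 2.31.1 gave the same counts (0 differences). Ties in score were ranked by width. Tests of density were two-sided exact binomial tests, and shares were given with exact (Clopper-Pearson) intervals and Newcombe intervals of differences, all at 95%, which cover counting error only and take peaks as independent. Chromosome I was not among those compared. The replicate lists shared 0 identical intervals on III. Scripts were tested on simulated data and used Python 3.11.15, numpy 2.4.6, pandas 2.3.3 and scipy 1.17.1. Members, settings and alternatives were chosen with earlier results of these data known. Positions named were the 10 strongest series peaks, the 3 widest, the 3 fullest and 3 emptiest 100-kb windows, the 3 longest stretches without a peak, and the 5 strongest unmatched peaks of each replicate. No gene or sequence is given, since no WS220 genome or annotation was used here.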

Additional observations from a re-analysis of the deposited data

How the results depend on the processing

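Across 13 results, 63 alternative values were computed, and 43 of them were counted as unchanged. These left the call as it was or lay inside the 95% interval. The fullest 100-kb window, which has neither, was counted among them for its similar number of peaks (37 against 39), though it lay elsewhere. Also counted as unchanged was the ratio of middle to outer density on III in replicate 1 (1.06, 0.969 to 1.16) and replicate 2 (1.14, 0.958 to 1.36). Both of these intervals include 1, whereas that of the series list (1.06 to 1.23) does not. The density ratio of III to II, IV, V and X together stayed above 1 with p under 0.05 in each of its 8 alternatives (1.08 to 1.42, and 1.28 to 1.29 in single replicates). It was 1.08 with all 428 absent peak numbers counted on the other 4. Counting all of them on a single chromosome turned the ratio to II (0.940) and to IV (0.936) below 1 and left V (1.02) and X (1.03) short of the threshold, so where those peaks lie matters. When lists were shortened to their stronger 50%, matches were found for 69.7% of III peaks from replicate 2 and 17.5% from replicate 1. On II, IV, V and X together these shares were 63.8% and 17.4%. Of series peaks, 12.8% were in both replicates on III and 10.8% on the other 4. With replicate lists of equal length 43.9% of replicate 2 and 39.0% of replicate 1 peaks of III were matched, by fewer peaks. On the other 4 these shares were 36.5% and 38.3%. Peaks under 50 bp made up 10.3% of III in the stronger 50% of the series list and 1.25% to 20.4% in single replicates. The other 4 had 7.29% and 0.578% to 16.5%. A neighbour within 1000 bp was found for 29.2% in the stronger 50% and for 16.8% to 31.9% in single replicates, within 500 bp for 20.0% and within 5000 bp for 89.7%. The difference between III and the other 4 in matched replicate 2 peaks had an interval including 0 in the stronger 50% of each list (5.81 points, -0.373 to 11.6), while that in matched replicate 1 peaks excluded 0 with midpoints within 200 bp (1.89 points, 0.305 to 3.57). Where a cause is not named, the cause was not tested. No paired analysis was possible because the input samples gave no list to set beside their ChIP samples. Unknown depth limits what the fewer peaks of replicate 2 can show.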
